A study of Homo sapiens with 9 samples.

Results

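Amino acids cross membranes through solute carriers, and 7 carrier families that are known mainly for this were followed in RNA-seq of MOLM13, an established acute myeloid leukemia (AML) cell line with a KMT2A fusion. Members were the protein-coding genes named SLC1A, SLC3A, SLC6A, SLC7A, SLC36A, SLC38A or SLC43A with a number, and the rule used no measured value. It found 59 of the 57820 named genes. It also took in SLC7A6OS, the opposite-strand neighbour of SLC7A6, which is not a transporter and was kept apart from the sums below. The study asked what loss or gain of RBM5, an RNA-binding protein of the spliceosome, does to transcription in these cells. RBM5 KO cells carried Cas9 and RBM5-sg1, so this group rests on 1 guide. RBM5 OE cells received RBM5 cDNA in a lentiviral RBM5-P2A-Venus vector, and CTRL cells carried a non-targeting sgRNA. Each group had 3 biological replicates, CTRL was set against both other groups, and the labels give no day of harvest. The paper names different days after transduction for its expression plots and for its splicing comparison of these cells. The labels also do not say whether CTRL cells carried an empty vector or RBM5 OE cells an sgRNA. RBM5 OE and CTRL may thus differ in vector and guide as well as in RBM5, and these cannot be told apart.

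Most of these carriers belong to a division of labour. Exchangers such as SLC7A5 with SLC3A2, SLC1A5 and SLC7A11 swap an amino acid inside the cell for another outside, whereas sodium-coupled loaders such as SLC38A2 and the facilitative or electrogenic carriers move amino acids in a net direction. Members of SLC36 and SLC38 also sit on lysosomes, where amino acid levels are read by mTORC1. When amino acids run short, the transcription factor ATF4 is known to bind C/EBP-ATF response elements in several transporter genes.

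The libraries held 25522952 to 27871988 estimated counts each. RBM5 itself had 70.5, 73.9 and 79.4 CPM (counts scaled to library size) in RBM5 KO, 380, 414 and 416 CPM in RBM5 OE, and 122, 117 and 113 CPM in CTRL. The RBM5 mRNA was thus reduced but present in RBM5 KO. Its level does not measure the protein, which the paper reports as reduced by its RBM5 guides on immunoblots of MOLM13. On the log2 scale the RBM5 mRNA of RBM5 KO differed from CTRL by −0.65 (adjusted p = 0.00692). That of RBM5 OE differed by 1.78 (adjusted p = 4.11e-08), where the count cannot separate vector from endogenous mRNA. The 6 myeloid markers examined were present in every library, for example SPI1 at 319 to 439 TPM (transcript abundance scaled by gene length and library) and CD33 at 91.7 to 119 TPM. FLT3 ran from 89.6 to 111 TPM in RBM5 KO, from 159 to 171 TPM in RBM5 OE and from 140 to 166 TPM in CTRL. MPO ran from 47.2 to 53.2 TPM in RBM5 KO, from 32.1 to 36.6 TPM in RBM5 OE and from 29.3 to 41.8 TPM in CTRL, so all RBM5 KO libraries were above the rest. PTPRC was at 37.8 to 49.2 TPM in RBM5 KO, 54.7 to 59.1 TPM in RBM5 OE and 34.7 to 41.1 TPM in CTRL, and CD33 was at 91.7 to 95.5 TPM in RBM5 OE and at least 110.4 TPM elsewhere. The part of these differences in the results below was not tested. COL3A1, EPCAM, KRT19 and HBB were listed at 0 in all 9 libraries. KRT8 reached 6.5 TPM, CD3D 4.04 TPM, and the other markers of fibroblasts, epithelium, lymphocytes and erythroid cells at most 2.20 TPM. In such bulk libraries a change in a few cells cannot be told apart from a change in every cell.

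Few of the carriers made up most of the transporter mRNA of these cells. Of the 59 members, 22 were listed at 0 in all 9 libraries, 26 averaged at least 1 TPM in CTRL and 18 at least 10 TPM. SLC38 contributed 7 of its 10 members to those at 1 TPM or more, SLC7 7 of 14, SLC6 4 of 19, SLC43 3 of 3, SLC1 2 of 7, SLC36 2 of 4 and SLC3 1 of 2. The neuronal and epithelial carriers of SLC6 were mostly silent, with 11 of 19 at 0, among them the intestinal carrier SLC6A19. The glutamate transporters SLC1A1, SLC1A2 and SLC1A6 were also at 0. A further 8 members had counts in some library but passed no filter, with a highest count from 1 (SLC7A3, SLC7A9) to 18.5 (SLC3A1): SLC1A7, SLC3A1, SLC6A4, SLC6A16, SLC6A20, SLC7A3, SLC7A9 and SLC7A10.

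The 5 most abundant members in CTRL, on the per-length TPM scale, were SLC1A5, SLC3A2, SLC7A5, SLC43A3 and SLC38A2. SLC1A5, a glutamine exchanger, averaged 157 ± 42.4 TPM in RBM5 KO, 358 ± 14.3 in RBM5 OE and 304 ± 32.7 in CTRL (SD, n = 3 each). SLC3A2, the shared heavy chain, averaged 134 ± 29.5, 465 ± 9.45 and 266 ± 43.1 TPM in RBM5 KO, RBM5 OE and CTRL. SLC7A5, the main leucine carrier, averaged 96.4 ± 28.8 TPM in RBM5 KO, 230 ± 9.69 in RBM5 OE and 204 ± 39.7 in CTRL. SLC1A5, SLC3A2 and SLC7A5 thus formed the top of the order in CTRL, and the spreads of SLC1A5 and SLC3A2 there overlapped. In RBM5 OE the order changed, with all 3 libraries of SLC3A2 (457 to 476 TPM) above all 3 of SLC1A5 (343 to 372 TPM). In RBM5 KO, SLC43A3 averaged 160 ± 28.4 TPM and stood beside SLC1A5 at the top.

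**Figure D1:**
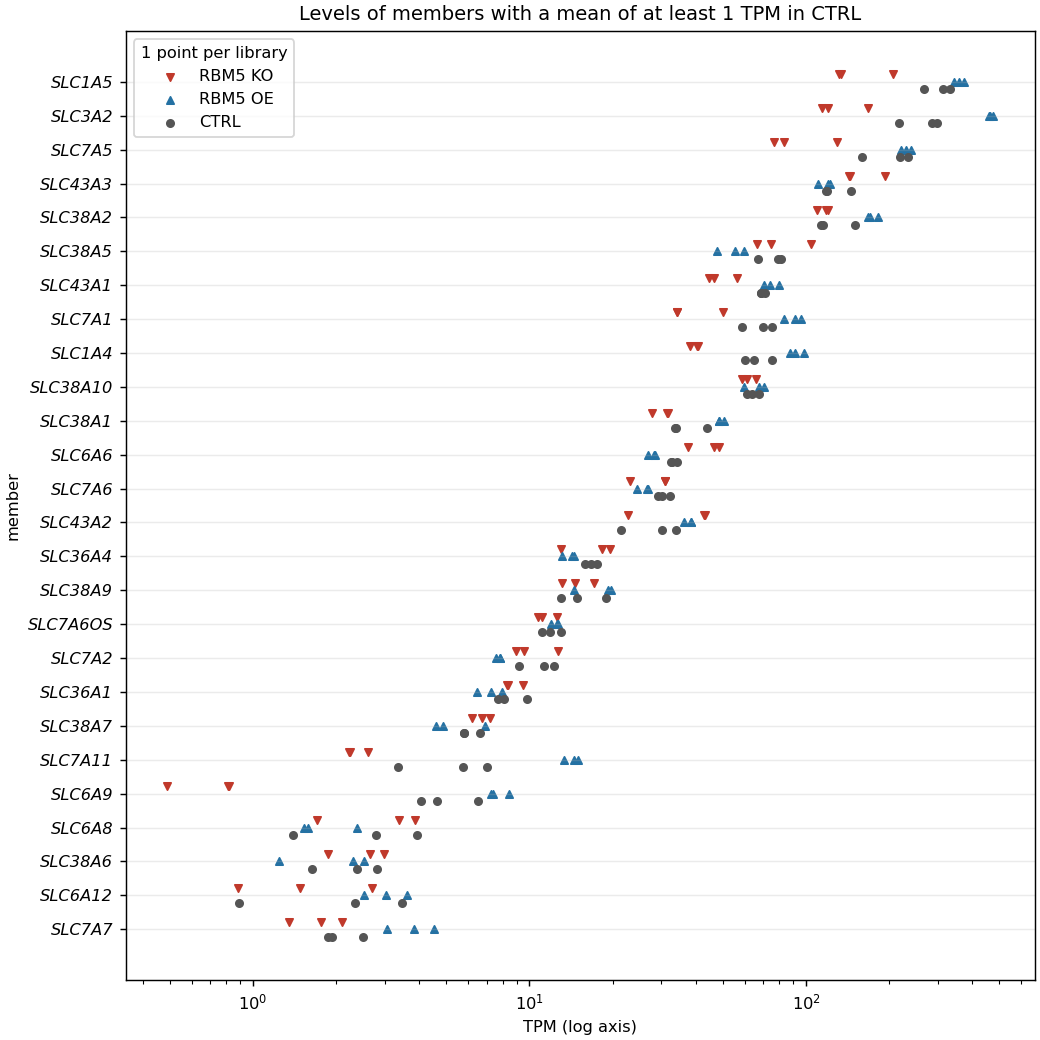
TPM on a log axis for the 26 members with a mean of at least 1 TPM in CTRL, with 1 point per library for RBM5 KO, RBM5 OE and CTRL. SLC1A5, SLC3A2 and SLC7A5 lead in CTRL, and SLC6A9 and SLC7A11 show the widest gaps between RBM5 KO and RBM5 OE.

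Summed over the 58 transporters, TPM was 1147 ± 148 in RBM5 KO, 1949 ± 54.4 in RBM5 OE and 1581 ± 143 in CTRL (SD, n = 3 each). The lowest RBM5 OE library (1903 TPM) lay above the highest CTRL library (1706 TPM), and the highest RBM5 KO library (1317 TPM) lay below the lowest CTRL library (1424 TPM). The 3 most abundant transporters of each library took 37.1 to 43.1% of this sum in RBM5 KO, 53.7 to 54.3% in RBM5 OE and 45.2 to 50.7% in CTRL. They were SLC1A5, SLC3A2 and SLC7A5 in every RBM5 OE and CTRL library. In RBM5 KO the set differed, with SLC43A3 above SLC7A5 in every library. The 10 SLC38 members, in contrast, summed to similar levels of 314 ± 20.1 TPM in RBM5 KO and 327 ± 22.4 TPM in CTRL, against 368 ± 4.97 TPM in RBM5 OE.

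In RBM5 KO against CTRL, 29 members passed the filter on low counts. Of these 8 were lower and 1 was higher at an adjusted p under 0.05, where 1.67% of the 14218 genes tested were lower and 0.837% higher. The lower members were SLC6A9, SLC7A11, SLC7A5, SLC3A2, SLC1A5, SLC7A1, SLC1A4 and SLC43A1. The higher one was SLC6A13, which passed the filter only through its RBM5 KO libraries and so had to differ. The 3 libraries of each group did not overlap for 10 members, 8 lower and 2 higher in RBM5 KO (SLC6A13 and SLC6A6), which compares with 22.9% of all genes tested in either direction. The median log2 fold change was −0.04 over the members and 0.01 over all genes tested, and the median absolute value 0.31 and 0.16. The other 20 tested members did not pass the test.

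How firmly these falls were called depended on single libraries. CTRL replicate 3 was the lowest CTRL library and RBM5 KO replicate 1 the highest RBM5 KO library for all 8 lower members, a pattern seen in 8.70% of all 14754 genes tested over the 9 libraries. At the median member, CTRL replicate 3 lay 0.18 below the mean of the other CTRL libraries on the log2 scale. CTRL replicate 1 lay 0.16 above the mean of the others, so it stood almost as far off. The medians over all genes were −0.004 and 0.005. The calls over all genes moved with the same choices, so each count is given with the share of all genes called lower in that fit. Without CTRL replicate 1 (0.124% of genes lower) or without CTRL replicate 2 (0.296%), 1 member was called lower, which was SLC6A9. Without RBM5 KO replicate 2 (0.531%) or replicate 3 (0.497%) there were 2, SLC6A9 and SLC1A4. Without CTRL replicate 3 (1.14%) there were 7, all but SLC43A1, and without RBM5 KO replicate 1 (3.77%) there were 8. Without both of these libraries (6.68%) there were 10, which included all 8 and added SLC38A1 and SLC6A12. Both were picked because they lay nearest the other group in these 8 members, so leaving them out widens those gaps by construction. This count is thus no independent support. The fold change of the 8 members was negative in every one of these fits. That had to be so, because all their RBM5 KO libraries lay below all their CTRL libraries. Over all genes tested, the deviations of CTRL replicate 3 and RBM5 KO replicate 1 from their group means correlated at 0.50. Over all genes they thus tended to deviate in the same direction, unlike in these 8 members, where they deviated in opposite directions. What set these 2 libraries apart was not tested.

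In RBM5 OE against CTRL, 28 members were tested, and 8 were higher and 5 lower. The background was high in this comparison, with 19.8% of 14370 genes higher and 20.2% lower. The higher members were SLC7A11, SLC7A7, SLC3A2, SLC6A9, SLC38A1, SLC1A4, SLC38A2 and SLC7A1, and the lower ones SLC38A5, SLC7A2, SLC7A6, SLC6A6 and SLC36A1. Groups did not overlap for 16 members, 10 higher and 6 lower in RBM5 OE, beside 51.7% of all genes. The share of members called was therefore near the background for falls and not far above it for rises. No test set these counts against the background. The median log2 fold change was 0.13 over the members and 0.01 over all genes tested.

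**Figure D2:**
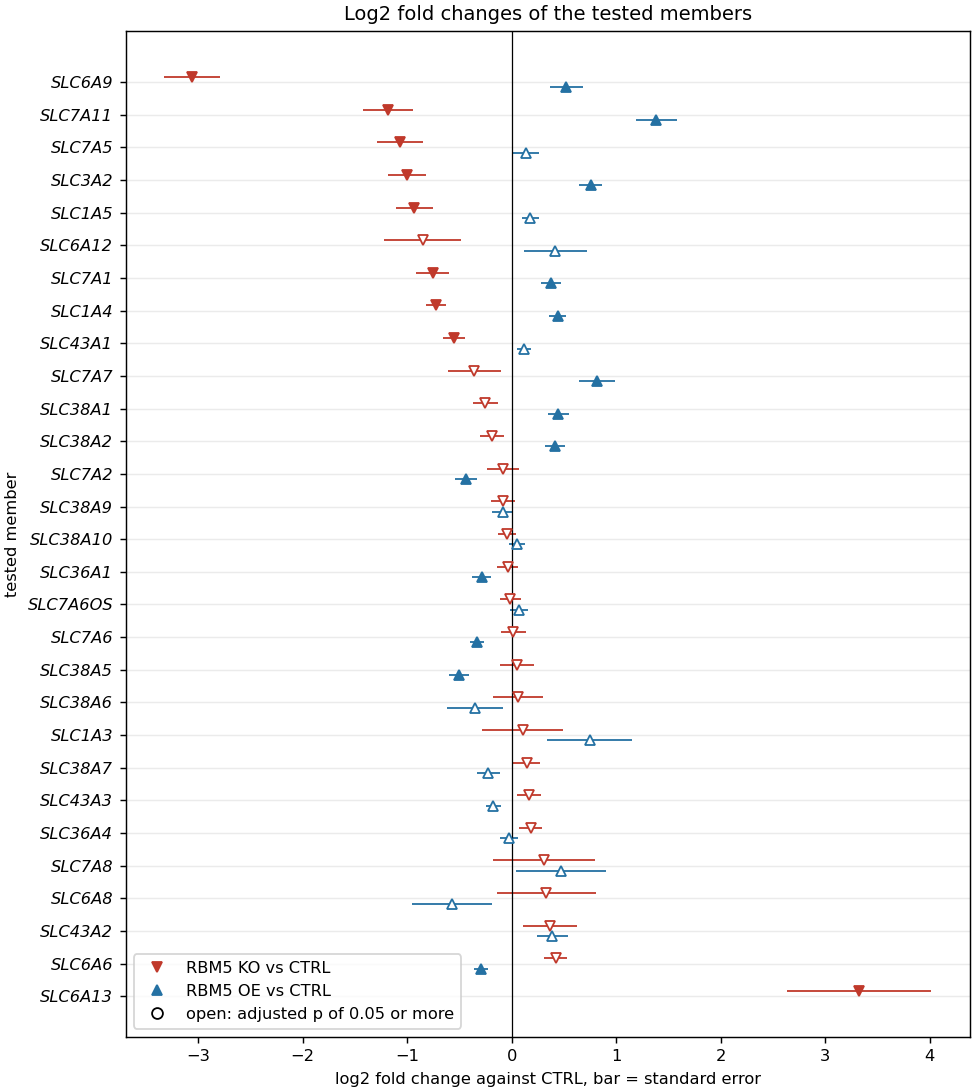
Log2 fold change against CTRL with its standard error for the tested members, from RBM5 KO (29 members) and RBM5 OE (28 members), with open symbols for an adjusted p of 0.05 or more. Both comparisons use the same 3 CTRL libraries, so a CTRL library that is high or low moves both values of a gene at once.

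RBM5 OE was also set against RBM5 KO directly, which does not use the CTRL level. Of 29 members, 12 were higher and 7 lower in RBM5 OE, against 19.5% higher and 20.6% lower among 14754 genes. Groups did not overlap for 19 members, 12 higher and 7 lower, beside 52.6% of all genes. The median absolute log2 fold change was 0.64 over the members and 0.32 over all genes. The 12 higher members stayed called, with the same direction, when any 1 of the 9 libraries was left out. The 7 lower ones were SLC6A13, SLC6A6, SLC38A5, SLC38A7, SLC43A3, SLC7A6 and SLC36A1, of which SLC6A13 overlapped between these groups. SLC6A13 was also not among the members tested in RBM5 OE against CTRL. It entered this fit through its RBM5 KO libraries, so its call here is no independent support. Of these 7, 2 remained called without RBM5 OE replicate 2 (SLC38A5 and SLC6A6; 15.5% of all genes lower in that fit). Without RBM5 OE replicate 1 (16.1%) 3 remained, SLC38A5, SLC6A6 and SLC43A3, and without RBM5 OE replicate 3 (15.9%) 3, SLC38A5, SLC6A6 and SLC38A7. Without RBM5 KO replicate 2 (18.5%) or replicate 3 (17.8%) 3 remained, SLC38A5, SLC6A6 and SLC43A3, and SLC7A2 was newly called.

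The heavy chains come first, because light chains of SLC7 need one to reach the plasma membrane. SLC3A2 (4F2hc or CD98), on chromosome 11 of GRCh37 from 62623476 to 62656352, is the partner of SLC7A5, SLC7A6, SLC7A7, SLC7A8, SLC7A10 and SLC7A11. It had 221, 146 and 155 CPM in RBM5 KO, 584, 577 and 603 CPM in RBM5 OE, and 385, 390 and 273 CPM in CTRL. The 3 groups did not overlap, with RBM5 KO lowest and RBM5 OE highest. Against CTRL the difference on the log2 scale was −1.00 in RBM5 KO (standard error 0.18, adjusted p = 0.0258) and 0.75 in RBM5 OE (0.11, adjusted p = 0.000326). Between RBM5 OE and RBM5 KO it was 1.76 (0.16, adjusted p = 1.24e-05). The other heavy chain, SLC3A1, which works with SLC7A9 in kidney, had at most 18.5 counts in a library and was not tested.

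SLC7A5 (LAT1), on chromosome 16 from 87863629 to 87903113, imports leucine and other large neutral amino acids and carried most of the light chain mRNA. It had 489, 282 and 302 CPM in RBM5 KO, 797, 818 and 851 CPM in RBM5 OE, and 847, 839 and 564 CPM in CTRL. All 3 RBM5 KO libraries were below all others, while RBM5 OE and CTRL overlapped. The log2 fold change was −1.07 in RBM5 KO (standard error 0.22, adjusted p = 0.0455) and 0.14 in RBM5 OE (0.12, adjusted p = 0.415). The RBM5 OE value was −0.038 without CTRL replicate 3, so its sign rested on that library. Against RBM5 KO, RBM5 OE was higher by 1.20 (0.20, adjusted p = 0.000594). The pseudogenes SLC7A5P1 and SLC7A5P2 resemble SLC7A5 and could share its reads, but were assigned at most 38 counts in any library.

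SLC7A11 (xCT), on chromosome 4 from 139085251 to 139163503, imports cystine in exchange for glutamate and so feeds glutathione synthesis. It had 22.4, 18.8 and 19.2 CPM in RBM5 KO, 122, 124 and 110 CPM in RBM5 OE, and 58.6, 51.0 and 27.6 CPM in CTRL. The groups did not overlap, although CTRL replicate 3 came close to RBM5 KO. The fall in RBM5 KO was −1.18 on the log2 scale (standard error 0.24, adjusted p = 0.0409), and the rise in RBM5 OE was 1.38 (0.20, adjusted p = 0.00026), the largest rise among the members tested there. RBM5 OE exceeded RBM5 KO by 2.56 (0.22, adjusted p = 6.6e-06). The counting did not use strand, and the antisense gene SLC7A11-AS1 had 13, 6 and 5 counts in RBM5 KO, 26, 44 and 44 in RBM5 OE and 28, 19 and 16 in CTRL, so the reads of these overlapping genes cannot be fully told apart.

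The remaining light chains followed other patterns. SLC7A7 (y+LAT1), which exchanges cationic for neutral amino acids, had 1.90, 3.28 and 2.43 CPM in RBM5 KO, 4.97, 6.25 and 5.92 CPM in RBM5 OE, and 3.02, 3.08 and 3.63 CPM in CTRL. It was low throughout and overlapped between RBM5 KO and CTRL (log2 fold change −0.36, adjusted p = 0.521). In RBM5 OE it was higher, by 0.82 (standard error 0.17, adjusted p = 0.00318). SLC7A6 (y+LAT2), of the same transport type, had 79.6, 108 and 107 CPM in RBM5 KO, 78.1, 76.1 and 77.1 CPM in RBM5 OE, and 101, 92.1 and 97.4 CPM in CTRL. Its RBM5 OE libraries lay below all CTRL libraries, a difference of −0.33 (0.066, adjusted p = 0.00233), and its RBM5 KO value was 0.02 (0.12, adjusted p = 0.966). SLC7A6 and SLC7A6OS overlap on opposite strands over 17321 bases, and SLC7A6OS did not pass the test in RBM5 KO (−0.01, adjusted p = 0.967) or in RBM5 OE (0.07, adjusted p = 0.547).

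SLC7A8 (LAT2), a further carrier of large neutral amino acids, was near the floor, with 0.841, 1.88 and 1.14 CPM in RBM5 KO, 1.98, 1.31 and 1.02 CPM in RBM5 OE, and 1.18, 1.52 and 0.416 CPM in CTRL. The groups overlapped, and neither 0.31 in RBM5 KO (standard error 0.49, adjusted p = 0.796) nor 0.47 in RBM5 OE (0.43, adjusted p = 0.415) passed the test. SLC7A10 and SLC7A9 had at most 4 and 1 counts in a library, and SLC7A13 none.

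On the TPM scale the balance of heavy and light chains differed between the groups. SLC3A2 had 1.01 to 1.07 times the summed TPM of the 8 light chains in RBM5 KO, 1.67 to 1.72 times in RBM5 OE and 1.07 to 1.12 times in CTRL. In RBM5 OE the heavy chain was higher and the light chain sum overlapped, at 266 to 285 TPM in RBM5 OE against 194 to 276 TPM in CTRL. In RBM5 KO both were lower, at 134 ± 29.5 TPM for the heavy chains and 130 ± 24.0 TPM for the light chains. Within the light chains, SLC7A11 took 1.66 to 1.96% of the TPM in RBM5 KO, 4.70 to 5.46% in RBM5 OE and 1.73 to 2.55% in CTRL. SLC7A5 took 67.8 to 82.3%, 82.9 to 84.4% and 81.9 to 85.0% in RBM5 KO, RBM5 OE and CTRL. These ratios are of mRNA, and no test was run on them.

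**Figure D3:**
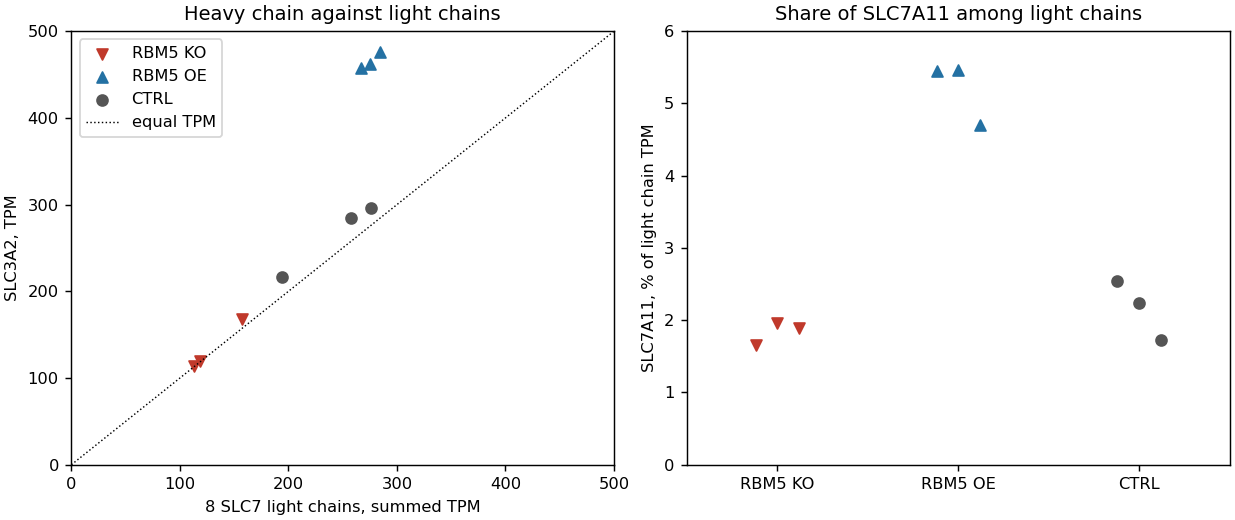
Left, SLC3A2 in TPM against the summed TPM of the 8 light chains, with 1 point per library and a dotted line at equal TPM. Right, the percentage of light chain TPM from SLC7A11, which was 4.70 to 5.46% in RBM5 OE and at most 2.55% elsewhere.

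The neutral exchangers of SLC1 both fell in RBM5 KO. SLC1A5 (ASCT2), on chromosome 19 from 47278140 to 47291851, exchanges glutamine for other small neutral amino acids. It had 487, 306 and 316 CPM in RBM5 KO, 769, 790 and 826 CPM in RBM5 OE, and 751, 757 and 605 CPM in CTRL. RBM5 KO lay below the other groups, with −0.93 on the log2 scale (standard error 0.18, adjusted p = 0.0325). In RBM5 OE all libraries were above all CTRL libraries, but by 0.18 only (0.083, adjusted p = 0.112), which did not pass the test.

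SLC1A4 (ASCT1), on chromosome 2 from 65215611 to 65250999, exchanges alanine, serine and cysteine. It had 158, 152 and 146 CPM in RBM5 KO, 325, 334 and 360 CPM in RBM5 OE, and 273, 256 and 221 CPM in CTRL. These 3 groups did not overlap. The log2 fold change was −0.72 in RBM5 KO (standard error 0.096, adjusted p = 0.00707) and 0.44 in RBM5 OE (0.081, adjusted p = 0.00131). The RBM5 KO call was lost without CTRL replicate 1 (adjusted p = 0.0606) or CTRL replicate 2 (0.0546), with log2 fold changes of −0.65 and −0.71. The glial glutamate transporter SLC1A3 had 12 to 50 counts and passed neither test.

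SLC7A1 (CAT1), on chromosome 13 from 30083551 to 30169825, takes up arginine and lysine without a heavy chain. It had 313, 216 and 214 CPM in RBM5 KO, 508, 550 and 568 CPM in RBM5 OE, and 453, 450 and 351 CPM in CTRL. The groups did not overlap, with −0.76 in RBM5 KO (standard error 0.16, adjusted p = 0.0471) and 0.38 in RBM5 OE (0.093, adjusted p = 0.00763). SLC7A2 (CAT2), its relative, did not pass in RBM5 KO (−0.08, adjusted p = 0.828) and was lower in RBM5 OE (−0.44, adjusted p = 0.00638). RBM5 OE and RBM5 KO thus differed by 1.13 for SLC7A1 (0.14, adjusted p = 0.000115) and by −0.36 for SLC7A2, which did not pass (adjusted p = 0.0517).

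**Figure D4:**
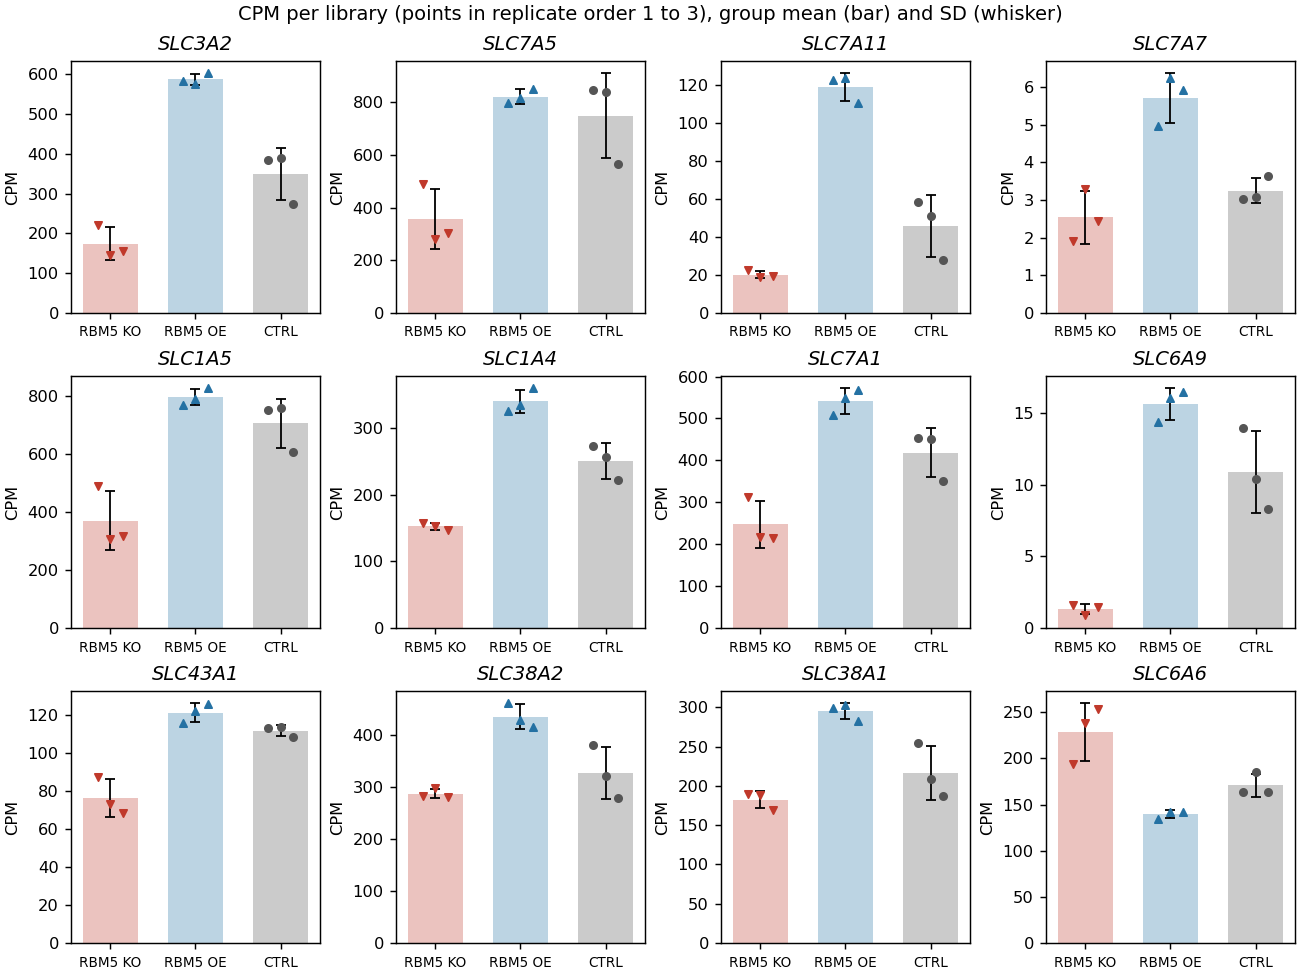
CPM in each library (points, replicates 1 to 3 from left to right), with the group mean (bar) and SD (whisker), for 12 members. CTRL replicate 3 is the lowest CTRL point and RBM5 KO replicate 1 the highest RBM5 KO point for SLC3A2, SLC7A5, SLC7A11, SLC1A5, SLC1A4, SLC7A1, SLC6A9 and SLC43A1.

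Among the SLC6 members, which use sodium and chloride, SLC6A9 showed the largest fall in RBM5 KO, on the log2 scale, among the members tested. SLC6A9 (GlyT1), a glycine transporter on chromosome 1 from 44457172 to 44497139, had 1.57, 0.921 and 1.44 CPM in RBM5 KO, 14.4, 16.1 and 16.5 CPM in RBM5 OE, and 14.0, 10.4 and 8.32 CPM in CTRL. It was low in absolute terms, with 25 to 43 counts per RBM5 KO library and 220 to 356 per CTRL library. The fall in RBM5 KO was −3.05 (standard error 0.27, adjusted p = 0.00221), and it was the only member called in all 6 fits that left out 1 library. The rise in RBM5 OE was 0.52 (0.16, adjusted p = 0.0228), and it was lost without CTRL replicate 2 (adjusted p = 0.0694), RBM5 OE replicate 2 (0.0691) or RBM5 OE replicate 3 (0.0729).

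SLC6A6, the taurine transporter, ran the other way. It had 194, 239 and 254 CPM in RBM5 KO, 134, 142 and 142 CPM in RBM5 OE, and 164, 185 and 164 CPM in CTRL. All RBM5 KO libraries were above and all RBM5 OE libraries below those of CTRL. The RBM5 KO value of 0.42 did not pass the test (standard error 0.11, adjusted p = 0.0951), though it did without RBM5 KO replicate 1 (0.53, adjusted p = 0.00652). The RBM5 OE value of −0.29 did (0.069, adjusted p = 0.00595), and RBM5 OE was below RBM5 KO by −0.72 (0.098, adjusted p = 0.000183).

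SLC6A13 and SLC6A12, carriers of GABA and betaine, lie side by side on chromosome 12, from 329787 to 372039 and from 299243 to 323736. SLC6A13 had 0.585, 1.40 and 2.02 CPM in RBM5 KO, 0.512, 0.247 and 0.607 CPM in RBM5 OE, and 0.275, 0.0780 and 0.0378 CPM in CTRL. That is 16 to 55 counts in RBM5 KO and 1 to 7 in CTRL, and the gene passed the filter only through its RBM5 KO libraries. The log2 fold change in RBM5 KO was 3.32 (standard error 0.69, adjusted p = 0.0452), and the call was lost in 5 of the 6 fits that left out 1 library, with adjusted p up to 0.198 without CTRL replicate 2. SLC6A12 was at 1.65 to 2.39 CPM in RBM5 KO, 4.09 to 5.38 CPM in RBM5 OE and 1.70 to 4.83 CPM in CTRL. It passed neither comparison with CTRL (−0.85, adjusted p = 0.287, and 0.42, adjusted p = 0.296) but was higher in RBM5 OE than in RBM5 KO by 1.26 (0.33, adjusted p = 0.00913). The creatine transporter SLC6A8 varied widely within groups, from 3.14 to 7.95 CPM in RBM5 KO, 2.85 to 4.21 CPM in RBM5 OE and 1.85 to 7.49 CPM in CTRL, and passed no comparison.

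The SLC38 carriers differed from each other in RBM5 OE. SLC38A2 (SNAT2), a sodium-coupled loader of glutamine and other small neutral amino acids, had 283, 297 and 281 CPM in RBM5 KO, 461, 429 and 415 CPM in RBM5 OE, and 380, 321 and 279 CPM in CTRL. RBM5 OE lay above CTRL by 0.42 (standard error 0.097, adjusted p = 0.00547), and RBM5 KO overlapped CTRL (−0.19, 0.11, adjusted p = 0.447). SLC38A1 (SNAT1), with a like substrate range, changed by 0.45 in RBM5 OE (adjusted p = 0.00361) and had −0.25 in RBM5 KO (adjusted p = 0.319). SLC38A5 (SNAT5), which takes up glutamine and histidine with sodium in exchange for protons, had 101, 65.8 and 69.6 CPM in RBM5 KO, 49.9, 52.8 and 58.0 CPM in RBM5 OE, and 66.0, 81.5 and 80.6 CPM in CTRL. It was lower in RBM5 OE (−0.50, 0.094, adjusted p = 0.00141) and overlapped CTRL in RBM5 KO (0.05, 0.16, adjusted p = 0.912).

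The lysosomal members moved little. SLC38A9, which reports lysosomal arginine to mTORC1, had log2 fold changes of −0.08 in RBM5 KO (adjusted p = 0.761) and −0.08 in RBM5 OE (adjusted p = 0.540). SLC36A1 (PAT1), a proton-coupled exporter of small amino acids, was lower in RBM5 OE by −0.29 (adjusted p = 0.0249), a call lost without CTRL replicate 3 (adjusted p = 0.0526), RBM5 OE replicate 1 (0.0925) or RBM5 OE replicate 2 (0.0605). SLC38A7 passed neither comparison with CTRL and was lower in RBM5 OE than in RBM5 KO by −0.37 (adjusted p = 0.0245). The remaining tested members of SLC36 and SLC38, whether lysosomal or not, were SLC38A10, SLC38A6 and SLC36A4, and they passed no comparison.

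Of the 3 SLC43 members, which facilitate diffusion, SLC43A1 changed in RBM5 KO. SLC43A1 (LAT3), a carrier of branched-chain amino acids on chromosome 11 from 57252007 to 57283253, had 87.6, 73.3 and 68.5 CPM in RBM5 KO, 116, 123 and 126 CPM in RBM5 OE, and 113, 114 and 109 CPM in CTRL. It was lower in RBM5 KO by −0.55 (standard error 0.10, adjusted p = 0.0287) and had 0.12 in RBM5 OE (0.064, adjusted p = 0.166). The RBM5 KO call of SLC43A1 held in 1 of the 6 fits that left out 1 library, the one without RBM5 KO replicate 1, and the adjusted p in the others ran from 0.061 (without CTRL replicate 3) to 0.156 (without CTRL replicate 1). SLC43A3, which carries purine nucleobases rather than amino acids, had 260, 209 and 195 CPM in RBM5 KO, 178, 171 and 176 CPM in RBM5 OE, and 184, 195 and 213 CPM in CTRL. Neither 0.16 in RBM5 KO (0.12, adjusted p = 0.527) nor −0.18 in RBM5 OE (0.070, adjusted p = 0.065) passed, and a same-strand gene that shares 17106 bases with it had up to 823 counts. SLC43A2 (LAT4) had 51.5, 94.7 and 100 CPM in RBM5 KO, 79.8, 83.7 and 85.2 CPM in RBM5 OE, and 65.2, 79.8 and 45.6 CPM in CTRL. It passed neither in RBM5 KO (0.37, 0.26, adjusted p = 0.52) nor in RBM5 OE (0.39, 0.15, adjusted p = 0.0581).

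To show what the promoters of these genes hold, the core letters TGATGNAA of the C/EBP-ATF response element were searched on both strands. RefSeq promoters of GRCh38.p14, from 250 bases before to 50 bases after each gene start, were at hand for 45 of the 59 members. A match was found in 4 of these 45 (8.89%) and in 1270 of all 35116 promoters (3.62%). It was found in 2 of the 7 members lower in RBM5 KO that had a promoter sequence, SLC1A5 and SLC7A1, and in SLC38A1 and the little expressed SLC1A3. SLC7A11 had no promoter entry. The stretches below, all on the minus strand and written 5′ to 3′ with the match in capitals, are shown because their genes passed a test. They are bases 114 to 201, 218 to 280 and 207 to 280 of the windows at chr19:46784765-46785064 for SLC1A5, chr13:29595639-29595938 for SLC7A1 and chr12:46266467-46266766 for SLC38A1.
SLC1A5: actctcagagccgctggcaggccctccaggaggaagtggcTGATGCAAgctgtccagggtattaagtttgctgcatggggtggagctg
SLC7A1: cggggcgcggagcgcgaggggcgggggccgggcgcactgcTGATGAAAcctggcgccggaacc
SLC38A1: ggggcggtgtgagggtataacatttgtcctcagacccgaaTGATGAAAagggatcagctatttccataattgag
The match started 97 bases before the start site of the entry in SLC1A5, 4 bases before it in SLC38A1 and at base 8 after it in SLC7A1. Whether these start sites are the outer starts of the genes was not checked. Each is a match of letters only, and no binding was measured in these libraries.

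Carriers and sensors outside the 7 families give the setting of these changes. Of 11 mitochondrial amino acid carriers, 10 were tested in RBM5 KO and none passed, where 1.67% of all genes were lower and 0.837% higher. With so few genes called there, the absence of calls says little about short lists such as these. In RBM5 OE 9 were tested and 3 were lower: SLC25A22, a glutamate carrier (−0.95, adjusted p = 3.35e-05), SFXN1, a serine carrier (−0.56, adjusted p = 0.000381), and SLC25A13, an aspartate-glutamate carrier (−0.35, adjusted p = 0.00399), where 20.2% of all genes were lower. Of 10 tested there, 5 were lower in RBM5 OE than in RBM5 KO, beside 20.6% of all genes: these 3 (−0.97, −0.59 and −0.37), SLC25A29, of basic amino acids (−0.46, adjusted p = 0.00357), and SLC25A44, of branched-chain amino acids (−0.35, adjusted p = 0.00889). All 5 lysosomal exporters outside the families were tested, and none passed in RBM5 KO, beside the same low shares of all genes. PQLC2 (0.43, adjusted p = 0.000363) and SLC15A3, of histidine and small peptides (0.74, adjusted p = 0.000688), were higher in RBM5 OE, beside 19.8% of all genes. PQLC2, which exports cationic amino acids, was also higher in RBM5 OE than in RBM5 KO, by 0.71 (adjusted p = 2.99e-05).

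Among 16 genes that report amino acids to mTORC1, SESN2 was the only one to pass in RBM5 KO, where 1.67% of all genes were lower and 0.837% higher. With so few genes called there, this count says little about the list. How the call of SESN2 held with single libraries left out was not examined. SESN2, a leucine sensor, had 35.8, 27.5 and 29.6 CPM in RBM5 KO, 209, 214 and 217 CPM in RBM5 OE, and 90.3, 105 and 41.9 CPM in CTRL. It changed by −1.35 in RBM5 KO (standard error 0.28, adjusted p = 0.0463) and by 1.44 in RBM5 OE (0.23, adjusted p = 0.000612), and CTRL replicate 3 was again the CTRL library nearest to RBM5 KO. In RBM5 OE 15 of these genes were tested, 3 were higher and 7 lower, where 19.8% of all genes were higher and 20.2% lower. The count of 3 is near the background. The Rag GTPase RRAGD (0.70, adjusted p = 0.000191) and SESN3 (0.69, adjusted p = 0.00312) were the other higher ones. The lower ones were the Ragulator subunits LAMTOR2 (−0.86, adjusted p = 1.1e-05), LAMTOR5 (−0.55, adjusted p = 0.00103) and LAMTOR3 (−0.49, adjusted p = 0.00182), the GATOR1 subunits DEPDC5 (−0.60, adjusted p = 0.000117) and NPRL2 (−0.29, adjusted p = 0.0267), SESN1 (−0.54, adjusted p = 0.000206), and RRAGA (−0.31, adjusted p = 0.0366), whose libraries overlapped with CTRL. Between RBM5 OE and RBM5 KO, where 19.5% of all genes were higher and 20.6% lower, 3 of 16 were higher and 6 lower. SESN2 (2.78), RRAGD (0.63) and NPRL3 (0.22) were the higher ones, and SESN1 (−0.81), LAMTOR2 (−0.63), LAMTOR3 (−0.59), LAMTOR5 (−0.42), DEPDC5 (−0.32) and RRAGA (−0.31) the lower ones.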

How the data were processed

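The data are 9 MOLM13 RNA-seq libraries, 3 each of RBM5 KO, RBM5 OE and CTRL. Ribosomal RNA was removed before library preparation. According to the submitters' processing notes, reads were trimmed with Trim Galore, aligned with STAR 2.7.1a to GRCh37, marked for duplicates with GATK 4.1.2.0 and counted with RSEM, without use of strand. The expected count values deposited by the authors are RSEM estimates that are not scaled between libraries. The TPM values deposited by the authors are scaled by length and library. The 92 spike-in entries, all at 0, were left out.

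Expected counts were rounded and tested in R 4.3.3 with edgeR 4.0.16 (filterByExpr, TMM scaling with factors 0.9715 to 1.025, quasi-likelihood test), and p-values were adjusted over every tested gene by the Benjamini-Hochberg method. Every adjusted p in the text comes from edgeR unless another tool is named. Each group was fitted with CTRL on its 6 libraries, and RBM5 OE against RBM5 KO on all 9. Standard errors were taken from the fold change and the F statistic. Calls required an adjusted p under 0.05. CPM served for values of 1 gene, and TPM for levels between genes. Nothing beyond the label of biological replicate says how cultures were separated, so p-values measure the spread between these libraries.

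The members, the lists of other carriers and sensors, and the tests were chosen with earlier results of these data known. Values in every library are given for members called against CTRL with an absolute log2 fold change of at least 0.5, the 5 most abundant members in CTRL, and SLC3A2 with its tested light chains. SLC6A6, SLC43A2, SLC6A12 and SESN2 were added after their values were seen. Positions are from GENCODE on GRCh37, matched for 58 members by gene ID, and promoters from RefSeq on GRCh38.p14. Alternatives were DESeq2 1.42.0, limma-voom and limma 3.58.1 on log2(TPM + 1) or log2(TPM + 0.1), other scaling and filters, a replicate block and each library left out. The fits were tested on simulated data. Leaving out CTRL replicate 3 and RBM5 KO replicate 1 together was added after the data were examined. Columns of the tables were all matched to a sample label. Figures were drawn with matplotlib.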

Additional observations from a re-analysis of the deposited data

How the results depend on the processing

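The count of members lower in RBM5 KO (8) was 2 with limma on log2(TPM + 1) or log2(TPM + 0.1), 0 with limma on log2(TPM + 1) without a filter, and 4 with an absolute log2 fold change over 1 asked for as well. Over all genes, the calls lower in RBM5 KO (238) were then 67, 65, 0 and 94, so the fit with 0 members called no gene in either direction. With any 1 library left out the count of lower members was 1 to 8 (0.124 to 3.77% of all genes lower). It was 10 (6.68%) without both CTRL replicate 3 and RBM5 KO replicate 1, a pair picked from these values. The count of higher members was 1, beside 0.837% of all genes. It was 2 with DESeq2 (2.41%), without the filter (1.12%) and in the fit of all 9 libraries (2.56%). It was 0 with limma-voom (0.485%), with a CPM of at least 1 in 3 libraries (0.926%) and with each limma fit on TPM (0 to 0.188%). Without both CTRL replicate 3 and RBM5 KO replicate 1 it was 3 (6.94%), and 0 to 2 when 1 library was left out (0.062 to 3.88%). In RBM5 OE against CTRL the higher members were 8, beside 19.8% of all genes. They were 3 with limma on log2(TPM + 1) without a filter (5.9%) and 1 with a log2 fold change over 1 (4.19%). The lower members there were 5, beside 20.2% of all genes. They were 3 with limma on log2(TPM + 1) (13.5%) or log2(TPM + 0.1) (13.3%), 2 without a filter there (5.18%) and 0 over 1 (1.7%). In RBM5 OE against RBM5 KO the lower members were 7, beside 20.6% of all genes. They were 3 with limma on log2(TPM + 1) (14.4%) or log2(TPM + 0.1) (14.3%), 1 without a filter there (6.18%) and 1 below −1 (3.07%). When 1 library was left out they were 2 to 9 (15.5 to 21.1%). The causes were not tested, apart from the stricter fold, which by its construction admits fewer genes. Over all genes the replicate numbers showed no clear pairing of the samples, which was not tested: deviations of same-numbered libraries correlated at −0.34, 0.13 and −0.42 between RBM5 KO and CTRL. Deviations within a group sum to 0, so these values depend on each other. Differently numbered libraries reached 0.50 (RBM5 KO replicate 1 with CTRL replicate 3), 0.33 (RBM5 KO replicate 3 with CTRL replicate 2) and 0.27 (RBM5 KO replicate 2 with CTRL replicate 1). The rest ran from −0.32 to 0.22. With the replicate block, 0 members were higher (0.317% of all genes) and 7 lower (0.767%) in RBM5 KO. SLC6A13 and SLC43A1 were lost (adjusted p = 0.13 and 0.0803). In RBM5 OE 9 were higher (18.7%) and 5 lower (18.8%). In RBM5 OE against RBM5 KO 12 were higher (17.6%) and 4 lower (18.3%).

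Signs turned under some alternative for 12 of 29 tested members in RBM5 KO, 4 of 28 in RBM5 OE and 3 of 29 in RBM5 OE against RBM5 KO, and 0 of these were called in that comparison. SLC38A5 in RBM5 KO ran from −0.17 to 0.16, SLC7A2 in RBM5 KO from −0.24 to 0.026, and SLC38A9 in RBM5 OE from −0.14 to 0.20. SLC7A6 in RBM5 KO was −0.11 with limma on log2(TPM + 1) with or without a filter and −0.12 with log2(TPM + 0.1), and ran from −0.062 (without RBM5 KO replicate 2) to 0.15 when libraries were left out, with −0.026 without CTRL replicate 2 and −0.055 without RBM5 KO replicate 3. SLC7A8 in RBM5 KO ran from −0.073 (without RBM5 KO replicate 2) to 0.69, with −0.07 without CTRL replicate 3. SLC7A5 in RBM5 OE ran from −0.038 (without CTRL replicate 3) to 0.22. SLC7A8 in RBM5 OE against RBM5 KO ran from −0.14 (without RBM5 OE replicate 1) to 0.54, with −0.073 without RBM5 KO replicate 1 and −0.066 without both CTRL replicate 3 and RBM5 KO replicate 1. With 3 libraries a group, changes of SLC7A8 and SLC1A3, which had at most 54 counts in a library, could be estimated only with wide errors.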
